A study of Mus musculus with 4 samples.

Results

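Cyclin-dependent kinase (CDK) inhibitors are small proteins that bind cyclin-kinase complexes and hold cells before or within the division cycle. Their transcripts were followed in sorted hematopoietic stem cells (HSCs) of the mouse bone marrow. The set holds the genes of the Cip/Kip family (Cdkn1a, Cdkn1b and Cdkn1c), those of the INK4 family (Cdkn2a, Cdkn2b, Cdkn2c and Cdkn2d), and Cdkn3. These 8 genes were chosen by name from the 23450 gene symbols listed, all 8 were found, and 6 of them had reads. The comparison asked how long-term HSCs (LT-HSC) differ from short-term HSCs (ST-HSC). The 2 LT-HSC libraries came from cells without CD48 and CD34, with CD150 and with high CD9, a tetraspanin of the cell surface. The 2 ST-HSC libraries came from cells without CD48, with CD150 and with low CD9, and no CD34 gate is given for them. Each library was made by RNA sequencing of 2000 sorted cells, and neither strain, age nor sex of the mice is given in the labels.

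INK4 proteins bind the kinases CDK4 and CDK6 and keep them from pairing with D-type cyclins. Cip/Kip proteins bind whole cyclin-CDK complexes, above all those of CDK2. When either family holds the kinases in check, the retinoblastoma proteins stay active and block the genes of DNA replication. In mouse HSCs, which rest outside the cycle for most of their life, p57 (Cdkn1c), p27 (Cdkn1b), p21 (Cdkn1a) and p18 (Cdkn2c) have each been tied to quiescence or self-renewal by gene deletion.

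The libraries held 13062848 to 16142666 recovered reads and 13275 to 14548 genes with a read. Values are read counts scaled to the library total (CPM). LT-HSC 1 stood somewhat apart. It had 286 genes at 100 reads or more that had at most 10 reads in each other library. Such genes numbered 142 for LT-HSC 2, 141 for ST-HSC 1 and 125 for ST-HSC 2. In the other direction it was less distinct. It had 138 genes at 10 reads or fewer that had at least 100 reads in each other library, against 86 such genes for LT-HSC 2, 53 for ST-HSC 1 and 117 for ST-HSC 2. Cdkn1a and Cdkn2c are among the 138. The summed level of 11 listed HSC markers was 4034 and 4273 CPM in LT-HSC, against 3110 and 3329 CPM in ST-HSC. The summed level of 5 listed markers of multipotent progenitors (Cd34, Cd48, Flt3, Plac8 and Dntt, the last at 0 in every library) was 190 and 261 CPM in LT-HSC, against 513 and 667 CPM in ST-HSC. Cd48 had 0.153 and 0.124 CPM in LT-HSC, against 16.4 and 38.8 CPM in ST-HSC, although both sorts exclude the protein. The defining T cell genes Cd3d and Cd3e and the B cell gene Pax5 were at 0 in every library, while Lck, Nkg7 and Cd79b from the lists of those cells were read in all 4. Summed levels of 9 erythroid markers were 417 and 293 CPM in LT-HSC, against 519 and 437 CPM in ST-HSC. The 6 T and NK cell markers summed to 39.6 and 102 CPM in LT-HSC, against 116 and 137 CPM in ST-HSC. The 6 megakaryocyte markers summed to 400 and 459 CPM in LT-HSC, against 301 and 202 CPM in ST-HSC. Vwf alone had 304 and 380 CPM in LT-HSC, against 45.3 and 9.17 CPM in ST-HSC. Itga2b went the other way, at 2.45 and 5.01 CPM in LT-HSC, against 152 and 105 CPM in ST-HSC. Pf4, Gp9 and Gp1bb were also lower in both LT-HSC libraries, and Ppbp overlapped. The 6 endothelial and stromal markers summed to 280 and 246 CPM in LT-HSC, against 184 and 218 CPM in ST-HSC. Sums of the 10 granulocyte-monocyte and 6 B cell markers overlapped. Klf1, an erythroid transcription factor gene, had 0.306 and 0.124 CPM in LT-HSC, against 27.4 and 9.43 CPM in ST-HSC. Aqp1, Hba-a1 and Hba-a2 from the same list were also lower in both LT-HSC libraries, while Car1, Hbb-b1 and Hbb-b2 overlapped. Epor was higher, at 50.8 and 26.6 CPM in LT-HSC, against 7.38 and 21.1 CPM in ST-HSC. Mpo, the myeloperoxidase gene of granulocytes, had 0 and 0.0619 CPM in LT-HSC, against 10.04 and 21.3 CPM in ST-HSC. From its list S100a9 was also lower in both LT-HSC libraries, Lyz2 was higher, and Elane, Prtn3, S100a8 and Csf1r overlapped. Ngp and Ltf, granule genes of neutrophils, differed within ST-HSC, with 102 and 37.6 CPM in ST-HSC 1 and 0 for both in ST-HSC 2. In such bulk samples, fewer cells that express a gene and less RNA per cell cannot be told apart.

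Of 12569 genes tested with limma on log2(CPM + 1), 0 passed an adjusted p of 0.05, which is 0% of the genes, and 814 (6.48%) had an unadjusted p under 0.05. Limma-voom on the recovered reads also passed 0 genes, with 586 at the unadjusted level. None of the 6 CDK inhibitor genes tested was past either threshold, so the differences below are values and not calls. Without LT-HSC 2, the log2 fold changes of LT-HSC over ST-HSC were -2.43 for Cdkn3, -3.38 for Cdkn2c, -3.23 for Cdkn1a and 1.81 for Cdkn1c. They were -1.84, -1.83, -1.57 and 1.60 with all 4 libraries. The groups did not overlap for 16.2% of all tested genes with LT-HSC on top and for 17.5% with LT-HSC at the bottom. Among the 6 inhibitor genes, 1 lay above and 1 below, shares close to that background. The labels do not say whether different animals stand behind the libraries of 1 group, so a p-value here speaks of the scatter among 4 libraries, whose origin may be technical. With 2 libraries against 2, the exact 2-sided permutation test of a single gene cannot give a p below 0.333.

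Among the Cip/Kip genes, Cdkn1c was the one whose groups were apart. It encodes p57, the imprinted inhibitor expressed from the maternal allele. Cdkn1c had 614 and 560 reads in LT-HSC 1 and 2, against 201 and 178 reads in ST-HSC 1 and 2. That is 46.9 and 34.7 CPM in LT-HSC, against 13.4 and 12.0 CPM in ST-HSC. Both LT-HSC libraries were well above both ST-HSC libraries, and the ST-HSC libraries lay close together. The LT-HSC mean was 40.8 ± 8.68 CPM, and the ST-HSC mean 12.7 ± 0.962 CPM (SD, n = 2 each). LT-HSC exceeded ST-HSC by 1.60 ± 0.69 on the log2 scale (SE), with a 95% interval of -0.18 to 3.37 (limma, unadjusted p = 0.0687, adjusted p = 0.770). Its size exceeded that of 85.2% of tested genes. With 1 library left out it was 1.38 to 1.81, the lowest being that without LT-HSC 1. Summed HSC and megakaryocyte marker levels were higher, and progenitor and erythroid ones lower, in the 2 LT-HSC libraries. Most of the megakaryocyte sum there was Vwf, while Itga2b, Pf4, Gp9 and Gp1bb were lower. The part of these markers in the Cdkn1c values was not tested.

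Cdkn1b encodes p27, an inhibitor whose amount is set largely by protein breakdown. It had 78.7 and 56.1 CPM in LT-HSC 1 and 2, against 69.6 and 85.5 CPM in ST-HSC 1 and 2. The groups overlapped, with LT-HSC 1 between the ST-HSC libraries. Their difference was -0.21 ± 0.40 on the log2 scale (SE), with a 95% interval of -1.23 to 0.81 (limma, adjusted p = 1.0).

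Cdkn1a encodes p21, a main target gene of p53. It had 1 read in LT-HSC 1 and 157 reads in LT-HSC 2, against 139 and 133 reads in ST-HSC 1 and 2. In CPM this was 0.0765 in LT-HSC 1 (exact 95% Poisson interval 0.00194 to 0.426, counting error only) and 9.72 in LT-HSC 2, against 9.24 and 8.96 in ST-HSC 1 and 2. A single library was low, and the other LT-HSC library matched both ST-HSC libraries within counting error. The 2 LT-HSC libraries differed by 3.32 on the log2(CPM + 1) scale, more than in 92.4% of tested genes. The log2 fold change of -1.57 ± 1.45 (SE) rested on LT-HSC 1 and was 0.086 without it (limma, adjusted p = 0.935 with all libraries and 0.982 without LT-HSC 1).

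**Figure D1:**
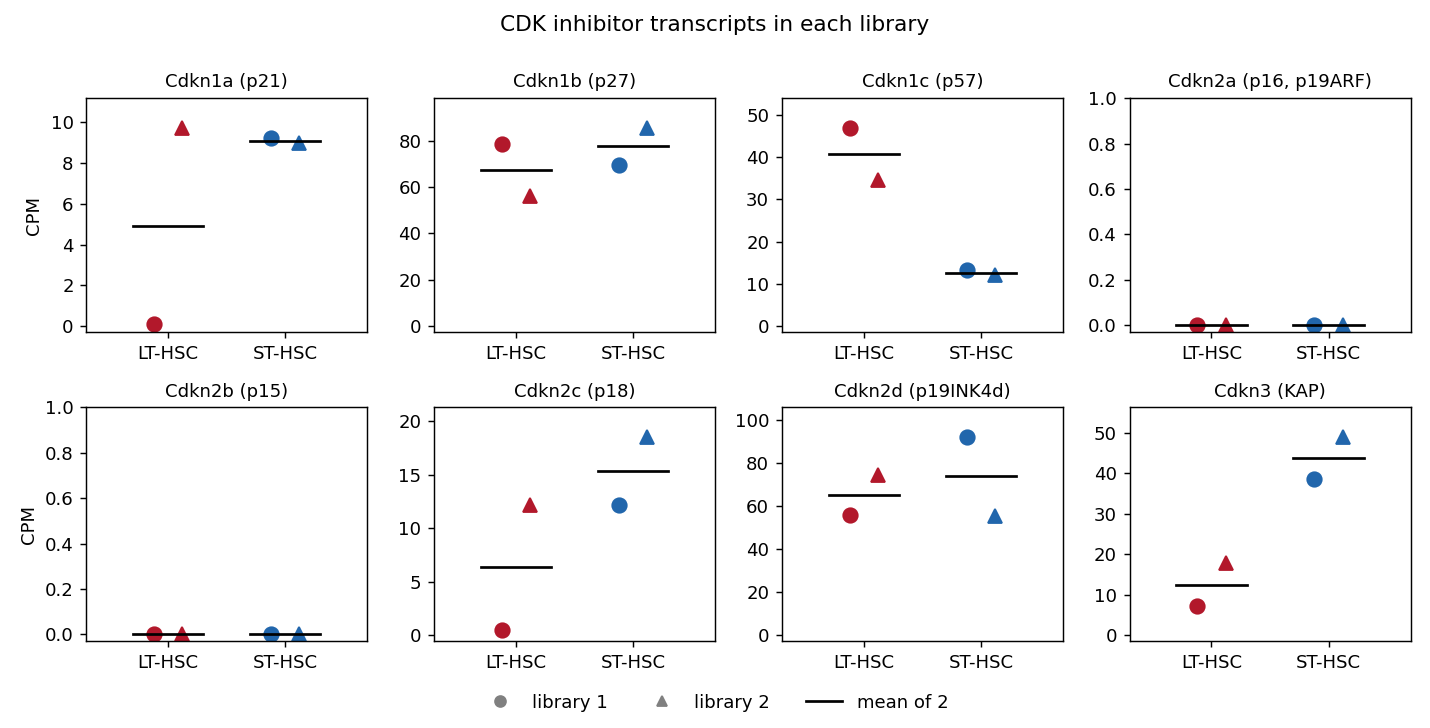
CPM of each CDK inhibitor gene in each library, with LT-HSC in red on the left and ST-HSC in blue on the right of each panel, circles for library 1, triangles for library 2 and lines for the mean of 2. Only Cdkn1c and Cdkn3 have groups that do not overlap, Cdkn1a and Cdkn2c have 1 low LT-HSC library, and Cdkn2a and Cdkn2b are at 0 throughout.

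Levels of different genes were compared only per kilobase of transcript, using the length of the first-numbered GENCODE transcript of each gene. Within the Cip/Kip family, Cdkn1c gave 42.9% and 39.0% of the summed CPM per kilobase in LT-HSC 1 and 2, against 17.2% and 13.5% in ST-HSC 1 and 2. Cdkn1b gave 57.1% and 50.1% in LT-HSC, against 71.0% and 76.5% in ST-HSC. Cdkn1a gave 0.0694% and 10.9% in LT-HSC, against 11.8% and 10.03% in ST-HSC. The family sum was 57.6 and 46.8 CPM per kilobase in LT-HSC, against 40.9 and 46.7 in ST-HSC. The sums of LT-HSC 2 and ST-HSC 2 were almost equal at this length, while the Cdkn1c shares did not overlap between the groups. These shares do not depend on library totals, and no test was run on them or on the sums. They do depend on the transcript length assumed. With the merged exon length of all coding transcripts, a choice made after seeing the data, Cdkn1c gave 58.3% and 52.9% in LT-HSC, against 26.9% and 21.9% in ST-HSC. The family sum was then 41.48 and 33.75 CPM per kilobase in LT-HSC, against 25.6 and 28.3 in ST-HSC, with both LT-HSC sums above both ST-HSC sums.

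The INK4 genes divided into an unread and a read pair. Cdkn2a and Cdkn2b, which neighbour each other on mouse chromosome 4, had 0 reads in all 4 libraries. Cdkn2a encodes both p16 and, from another reading frame, p19ARF, which guards p53, and the single listed row does not separate these transcripts. Cdkn2b encodes p15, which TGF-beta induces in many cell types. By the floor used here, a count of 0 allows up to 3 reads in a library, or 0.186 to 0.229 CPM. Transcripts under that level can therefore not be excluded at this depth. No fold change is given for these 2 genes.

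Cdkn2d, which encodes p19INK4d, was the most abundant INK4 transcript per kilobase in every library. It had 55.9 and 74.3 CPM in LT-HSC 1 and 2, against 92.1 and 55.6 CPM in ST-HSC 1 and 2. Both LT-HSC values lay between the ST-HSC values. On the log2 scale the difference was -0.15 ± 0.45 (SE), with a 95% interval of -1.30 to 1.004 (limma, adjusted p = 1.0), and its sign turned to 0.053 without LT-HSC 1 and 0.21 without ST-HSC 1. Cdkn2d gave 98.9% and 84.2% of the INK4 sum per kilobase in LT-HSC, against 86.9% and 72.4% in ST-HSC.

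Cdkn2c encodes p18, whose loss in mice raises HSC self-renewal. It had 7 and 197 reads in LT-HSC 1 and 2, against 183 and 275 reads in ST-HSC 1 and 2. This was 0.535 and 12.2 CPM in LT-HSC, against 12.2 and 18.5 CPM in ST-HSC. LT-HSC 2 and ST-HSC 1 had the same level within counting error, and LT-HSC 1 was far below all others. The log2 fold change was -1.83 ± 1.399 (SE), with a 95% interval of -5.44 to 1.78, and -0.28 without LT-HSC 1 (limma, adjusted p = 0.895 with all libraries).

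**Figure D2:**
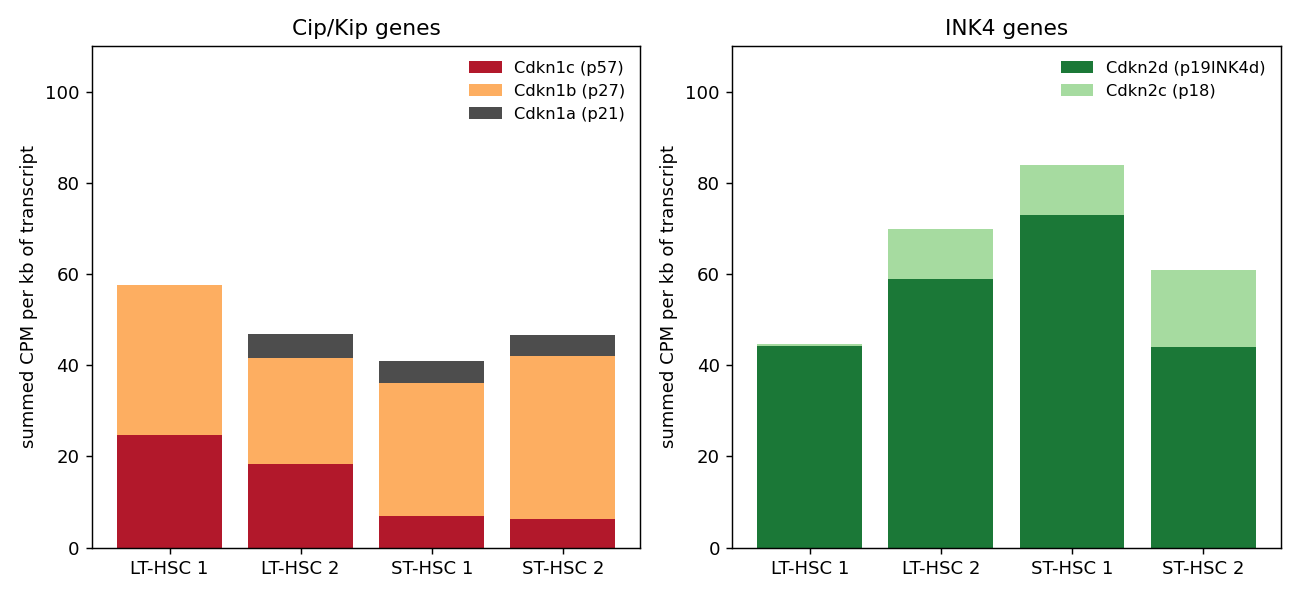
Summed CPM per kilobase of transcript for the Cip/Kip genes on the left and the INK4 genes on the right, 1 stacked bar per library, with LT-HSC libraries left of ST-HSC libraries. The Cdkn1c segment makes up 42.9% and 39.0% of the Cip/Kip bars in LT-HSC, against 17.2% and 13.5% in ST-HSC, and Cdkn2d makes up most of each INK4 bar.

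Cdkn3 stands outside both families. It encodes KAP, a phosphatase that acts on CDK2 and whose transcript is known to peak in dividing cells. Promoter windows from RefSeq (build GRCm38.p6, 250 bases before to 50 after a transcript start) were matched for 7 of the 8 genes, all except Cdkn1c. They were searched on both strands for the CCAAT box (CCAAT), the CHR element (TTTGAA or TTCGAA), which together mark many genes of late division, and the E2F site (TTTCCCGC, TTTCGCGC, TTTGCCGC or TTTGGCGC) of replication genes. The windows of Cdkn3 and Cdkn2c are shown because these genes had the lowest LT-HSC values relative to ST-HSC. Matches are in capitals, and no matches overlapped. The first is Cdkn3 (chr14:46760291-46760590, plus strand), followed by both start sites of Cdkn2c (chr4:109666707-109667006 and chr4:109665323-109665622, minus strand).
Cdkn3: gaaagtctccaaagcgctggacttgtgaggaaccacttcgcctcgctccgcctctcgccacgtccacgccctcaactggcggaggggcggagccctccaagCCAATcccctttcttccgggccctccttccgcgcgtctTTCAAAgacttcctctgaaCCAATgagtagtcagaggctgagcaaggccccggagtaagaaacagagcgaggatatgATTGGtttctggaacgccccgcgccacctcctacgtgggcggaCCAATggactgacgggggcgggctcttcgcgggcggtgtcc
Cdkn2c first start: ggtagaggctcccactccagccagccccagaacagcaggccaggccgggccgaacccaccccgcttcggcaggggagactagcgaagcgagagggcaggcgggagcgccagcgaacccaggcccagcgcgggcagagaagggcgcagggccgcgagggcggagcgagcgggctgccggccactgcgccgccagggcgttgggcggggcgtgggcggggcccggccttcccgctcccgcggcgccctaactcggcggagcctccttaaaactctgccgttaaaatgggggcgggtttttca
Cdkn2c second start: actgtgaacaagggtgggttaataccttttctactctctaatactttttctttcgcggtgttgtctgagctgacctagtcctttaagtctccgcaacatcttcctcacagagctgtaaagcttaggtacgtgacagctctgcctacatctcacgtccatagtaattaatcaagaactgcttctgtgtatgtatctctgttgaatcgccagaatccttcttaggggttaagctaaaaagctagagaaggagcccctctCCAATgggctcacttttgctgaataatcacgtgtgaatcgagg
The Cdkn3 window held 4 CCAAT boxes, which begin 149, 92 and 34 bases before the start and 9 bases after it, and 1 CHR element, which begins 111 bases before it. Of 32851 promoter windows, 37.4% held a CCAAT box, 3.37% held at least 3, 19.2% held a CHR element, 7.52% held both and 2.26% held an E2F site. The first Cdkn2c window held none of the motifs, and the second held 1 CCAAT box that begins 7 bases after the start. The Cdkn1b window held 3 CCAAT boxes and no CHR element. The unread Cdkn2b had a CHR element that begins 161 bases before its start. Of both windows of the unread Cdkn2a, 1 held the only E2F site among the 7 genes, which begins 99 bases before the start, and the other a CCAAT box. Cdkn2d had 1 CCAAT box, and the Cdkn1a windows held none of the motifs. These letters are a description of the sequence and show no binding.

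Cdkn3 had 95 and 287 reads in LT-HSC 1 and 2, against 582 and 726 reads in ST-HSC 1 and 2. That is 7.26 and 17.8 CPM in LT-HSC, against 38.7 and 48.9 CPM in ST-HSC. Both LT-HSC libraries were below both ST-HSC libraries. The LT-HSC mean was 12.5 ± 7.42 CPM, and the ST-HSC mean 43.8 ± 7.26 CPM (SD, n = 2 each). The log2 fold change was -1.84 ± 0.78 (SE), with a 95% interval of -3.85 to 0.17 (limma, unadjusted p = 0.0654, adjusted p = 0.767). With 1 library left out it was -2.43 to -1.25, the smallest size being that without LT-HSC 1. A list of 20 genes of the G2 and M phases, all tested, had a median log2 fold change of -2.07, beside -0.01 over all tested genes. Of the 20, 16 lay under both ST-HSC libraries and 0 over both, beside 17.5% and 16.2% of all tested genes. Its summed level was 562 and 516 CPM in LT-HSC, against 1590 and 2076 CPM in ST-HSC. The value of Cdkn3 lay near that median, and whether it followed the share of dividing cells was not tested. Mki67, the gene of the proliferation antigen Ki-67, had 17.5 and 58.2 CPM in LT-HSC, against 190 and 223 CPM in ST-HSC. Top2a, which untangles DNA before mitosis, had 94.2 and 117 CPM in LT-HSC, against 384 and 579 CPM in ST-HSC.

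Per kilobase, Cdkn2d was the highest of the 8 genes in LT-HSC 1, LT-HSC 2 and ST-HSC 1, and Cdkn3 was the highest in ST-HSC 2, where Cdkn2d came next. Mean levels per kilobase in LT-HSC ran from Cdkn2d (51.5 ± 10.3) over Cdkn1b (28.2 ± 6.66), Cdkn1c (21.5 ± 4.56) and Cdkn3 (13.7 ± 8.10) to Cdkn2c (5.75 ± 7.45) and Cdkn1a (2.56 ± 3.56) CPM per kilobase (SD, n = 2). In this order Cdkn1b and Cdkn1c, Cdkn1c and Cdkn3, Cdkn3 and Cdkn2c, and Cdkn2c and Cdkn1a lay within their combined spread. In ST-HSC the means were 58.4 ± 20.4 for Cdkn2d, 47.8 ± 7.91 for Cdkn3, 32.4 ± 4.70 for Cdkn1b, 13.9 ± 4.07 for Cdkn2c, 6.67 ± 0.506 for Cdkn1c and 4.76 ± 0.101 for Cdkn1a (SD, n = 2). There Cdkn2d and Cdkn3 lay within their spread. With merged exon lengths, Cdkn2d was the highest in all 4 libraries, and Cdkn1c passed Cdkn1b in both LT-HSC libraries, so the order of neighbouring genes depends on the length used.

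The genes on which the inhibitors act were listed with earlier results of these data known. No gene of the 12 lists passed the adjusted threshold. Of their 128 tested genes, 7 were higher and 21 lower in LT-HSC at an unadjusted p under 0.05, where 2.87% and 3.6% of all tested genes were. The count of 28 in both directions was 16 without ST-HSC 1 and 11 without ST-HSC 2. The INK4 targets, D cyclins and their kinases, had a median log2 fold change of 0.10 over 5 tested genes, which was 0.0020 without LT-HSC 1, -0.20 without LT-HSC 2 and -0.295 without ST-HSC 2. Cdk6, which INK4 proteins bind, had 61.1 and 60.4 CPM in LT-HSC, against 137 and 144 CPM in ST-HSC. Its groups were far apart relative to their spread, with a log2 fold change of -1.19 ± 0.32 (SE) (limma, unadjusted p = 0.0123, adjusted p = 0.716). The other INK4-bound kinase gene, Cdk4, had 650 and 483 CPM in LT-HSC, against 515 and 528 CPM in ST-HSC, and the groups overlapped. Of the D cyclin genes, which all overlapped between groups, Ccnd2 had a log2 fold change of -0.10 ± 0.19 (SE), Ccnd3 of 0.34 ± 0.50 (SE) and Ccnd1 of 0.29 ± 1.12 (SE).

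The Cip/Kip targets CDK1, CDK2 and their cyclins had a median of -1.51 over 7 tested genes, 5 of them under both ST-HSC libraries and 0 over both. Of all tested genes, 17.5% lay under both and 16.2% over both. Ccnb2, a cyclin of mitosis, had 26.98 and 12.87 CPM in LT-HSC, against 98.8 and 64.0 CPM in ST-HSC (limma, adjusted p = 0.717). Ccne1, the cyclin that opens S phase with CDK2, had 1.22 and 0 CPM in LT-HSC, against 28.2 and 9.03 CPM in ST-HSC (adjusted p = 0.746). Cdk1, the mitotic kinase gene, had 116 and 32.4 CPM in LT-HSC, against 152 and 150 CPM in ST-HSC. Cdk2 overlapped between the groups, at 54.9 and 69.3 CPM in LT-HSC, against 82.6 and 62.0 CPM in ST-HSC. Ccna2, the S and G2 phase cyclin, had 65.8 and 0.248 CPM in LT-HSC, against 32.0 and 44.3 CPM in ST-HSC. Here LT-HSC 2, not LT-HSC 1, was the low library.

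**Figure D3:**
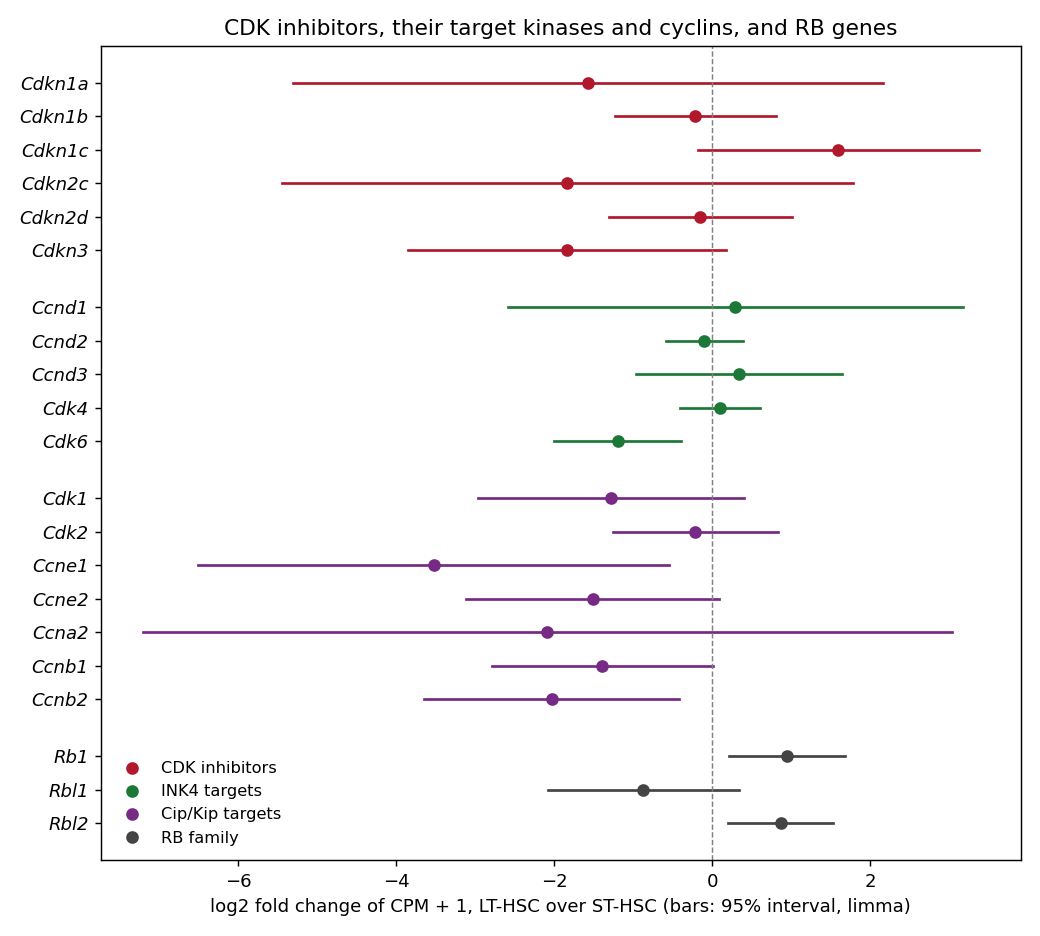
Log2 fold change of CPM + 1 in LT-HSC over ST-HSC with its unadjusted 95% interval from limma, for 6 CDK inhibitor genes, the INK4 and Cip/Kip targets and the retinoblastoma family. All 6 inhibitor intervals span 0, with Cdkn1c the only inhibitor to the right of 0, while Cdk6, Ccne1, Ccnb2, Rb1 and Rbl2 have unadjusted intervals that leave out 0.

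The retinoblastoma genes, whose proteins the kinases switch off, split by member. Rb1 had 192 and 206 CPM in LT-HSC, against 89.6 and 118 CPM in ST-HSC (log2 fold change 0.95 ± 0.29, SE). Rbl2, the gene of p130 that is abundant in resting cells, had 191 and 202 CPM in LT-HSC, against 101 and 114 CPM in ST-HSC (log2 fold change 0.87 ± 0.26, SE). Rbl1, the gene of p107 that is made in cycling cells, had 32.9 and 31.3 CPM in LT-HSC, against 62.23 and 57.02 CPM in ST-HSC (log2 fold change -0.87 ± 0.47, SE). In all 3 genes the groups were apart, as for 16.2% of all tested genes with LT-HSC on top and 17.5% with LT-HSC at the bottom. None of the 3 passed the limma test (adjusted p = 0.716, 0.716 and 0.827 in this order).

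Genes that break down p27, p21 and p57 had a median of -0.28 over 11 tested genes (-0.15 without LT-HSC 1). Of these, 2 lay above and 3 below both ST-HSC libraries, beside 16.2% and 17.5% of all tested genes. Dtl, which directs a ubiquitin ligase to p21, had 28.9 and 34.7 CPM in LT-HSC, against 99.7 and 111 CPM in ST-HSC (limma, adjusted p = 0.716). Skp2, which marks p27 for breakdown, had 8.49 and 46.2 CPM in LT-HSC, against 34.0 and 59.4 CPM in ST-HSC, with overlap. Its cofactor gene Cks1b had 115 and 71.8 CPM in LT-HSC, against 138 and 132 CPM in ST-HSC (log2 fold change -0.57 ± 0.36, SE). Cops5, a subunit of the COP9 signalosome that binds p27, had a log2 fold change of -0.58 ± 0.33 (SE).

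Transcription factors that act on the Cip/Kip genes had a median of 0.32 over 17 tested genes (0.022 without ST-HSC 2). Of these, 5 lay above and 2 below both ST-HSC libraries, beside 16.2% and 17.5% of all tested genes. The 2 smallest p belonged to Egr1, with a log2 fold change of 0.68 ± 0.18 (SE), and Mllt3, with 0.56 ± 0.16 (SE) (limma, adjusted p = 0.716 for both). Foxo3, which drives Cdkn1b, had 89.5 and 88.4 CPM in LT-HSC, against 116 and 56.7 CPM in ST-HSC, so the LT-HSC values lay between the ST-HSC values. Trp53, the p53 gene, overlapped as well, at 528 and 366 CPM in LT-HSC, against 451 and 357 CPM in ST-HSC. The other target genes of p53 had a median of 0.61 over 14 tested genes, 4 above and 2 below both ST-HSC libraries, beside the same 16.2% and 17.5%. Leaving out LT-HSC 1 gave a median of 0.18, and leaving out ST-HSC 2 gave -0.11. Plk2 had 116 and 129 CPM in LT-HSC, against 25.3 and 12.5 CPM in ST-HSC. Perp had 27.9 and 28.6 CPM in LT-HSC, against 0.0665 and 1.35 CPM in ST-HSC. Neither passed the limma test (adjusted p = 0.716 for both). In both genes LT-HSC 1 lay near LT-HSC 2, unlike in Cdkn1a. Another p53 target, Gadd45a, named after its values were seen, was low in LT-HSC 1 as Cdkn1a was. It had 0.459 and 13.1 CPM in LT-HSC, against 24.5 and 65.5 CPM in ST-HSC. Unlike in Cdkn1a, LT-HSC 2 also lay below both ST-HSC libraries. Further p53 targets, also named after their values were seen, went either way. Mdm2, Ccng1 and Btg2 were lower in LT-HSC 1 than in LT-HSC 2, and Sesn2, Phlda3 and Bax were higher.

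Polycomb proteins silence Cdkn2a and Cdkn2b in many cell types, and their genes had a median of -0.19 over 13 tested genes. It was -0.55 without LT-HSC 1, -0.31 without ST-HSC 2 and -0.064 without ST-HSC 1. Of the 13, 1 lay above and 2 below both ST-HSC libraries, beside 16.2% and 17.5% of all tested genes. Bmi1, the Polycomb gene needed for HSC self-renewal through this locus in mice, was read in every library, at 72.2 and 84.0 CPM in LT-HSC, against 49.6 and 131 CPM in ST-HSC. Ezh2, the methyltransferase gene, had 118 and 128 CPM in LT-HSC, against 219 and 190 CPM in ST-HSC. Cbx8 had 0.535 and 0.433 CPM in LT-HSC, against 35.0 and 23.1 CPM in ST-HSC (limma, adjusted p = 0.750 for Ezh2 and 0.716 for Cbx8). Genes of the p19ARF pathway had a median of -0.004 over 7 tested genes (-0.68 without LT-HSC 2), and the 2 with the smallest p were E2f1, with a log2 fold change of -1.46 ± 0.65 (SE), and Ubtf, with -0.30 ± 0.43 (SE).

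Genes listed for the imprinted region around Cdkn1c, Igf2 and H19 included, had a median of 1.31 over 6 tested genes. Of these, 2 lay above and 1 below both ST-HSC libraries. Over all tested genes 16.2% lay above and 17.5% below, a background that also holds for the lists that follow. The median was 0.077 without ST-HSC 2 and 2.54 without ST-HSC 1. Log2 fold changes were 6.21 ± 1.03 for Igf2, 2.47 ± 2.08 for Slc22a18 and 2.45 ± 1.78 for H19 (SE). They were 0.16 ± 0.23 for Cd81, -0.10 ± 0.39 for Nap1l4 and -1.57 ± 0.83 for Phlda2 (SE). The list had no common direction. Igf2, a growth factor gene expressed from the paternal allele, had 103 and 51.2 CPM in LT-HSC, against 0 reads in both ST-HSC libraries. Phlda2, like Cdkn1c expressed from the maternal allele, had 8.33 and 7.74 CPM in LT-HSC, against 26.8 and 24.8 CPM in ST-HSC, a direction opposite to that of Cdkn1c. Neither passed the limma test (adjusted p = 0.716 for Igf2 and 0.819 for Phlda2). Other Cdkn-named genes and CDK brakes had a median of 0.60 over 9 tested genes, 0 above and 1 below both ST-HSC libraries, and a median of -0.18 without LT-HSC 1, 0.076 without ST-HSC 1 and 0.033 without ST-HSC 2. The gene below was Cdk2ap1, with a log2 fold change of -0.73 ± 0.28 (SE), and Pkmyt1, a kinase gene that restrains CDK1, had -1.01 ± 0.75 (SE). S phase genes had a median of -0.75 over 18 tested genes, 11 below and 0 above both ST-HSC libraries. That median was -0.49 without LT-HSC 1, -0.54 without ST-HSC 2 and -1.06 without LT-HSC 2. In that list the helicase gene Mcm7 stood at -1.76 ± 0.47 on the log2 scale (SE). In the G2 and M phase list the 2 smallest p belonged to Top2a and to Hmmr, a spindle gene with a log2 fold change of -5.17 ± 1.03 (SE).

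**Figure D4:**
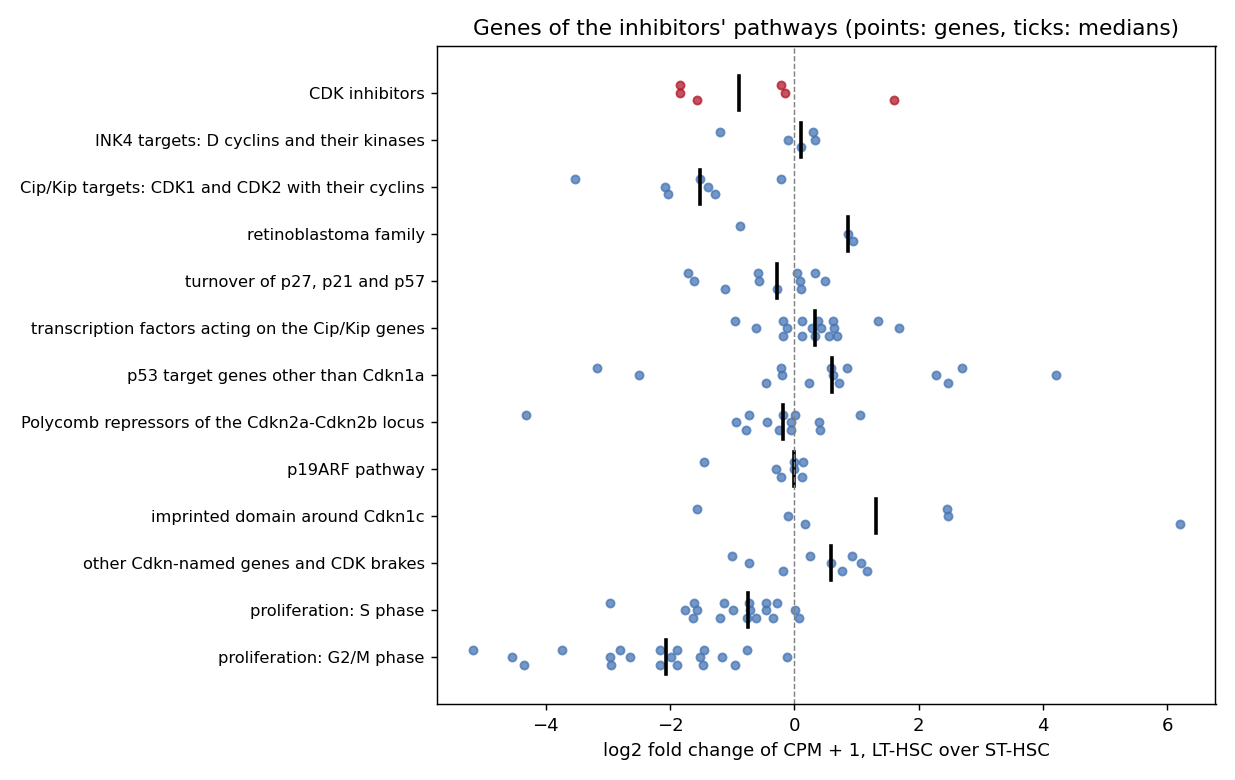
Log2 fold change of CPM + 1 in LT-HSC over ST-HSC for each tested gene, by list, with CDK inhibitors in red, other lists in blue and a black tick at each median. The ticks for G2/M phase genes (-2.07) and Cip/Kip targets (-1.51) lie farthest to the left, and the CDK inhibitors spread from -1.84 for Cdkn3 to 1.60 for Cdkn1c.

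For each inhibitor gene, the most alike profiles were sought among tested genes with a gene name. Gene models with symbols such as Gm, Rik or LOC were left out. The measure was the Euclidean distance between centred log2(CPM + 1) values over the 4 libraries. For Cdkn1c they were Csnk1g3 (distance 0.094) and Mfsd8 (0.106). For Cdkn3 they were Zbtb8a (0.078) and Mpp4 (0.111), and for Cdkn2c Slc20a1 (0.071) and Ptplad1 (0.102). For Cdkn1a they were Smad6 (0.025) and Nat2 (0.180), both also low in LT-HSC 1, where Smad6 had 0.229 CPM. For Cdkn2d they were Khdrbs1 (0.072) and Far2 (0.113), and the nearest given for Cdkn1b is Aimp1 (0.064). With only 4 libraries many genes lie close. Within a distance of 0.5 there were 60 such named genes for Cdkn1c, 38 for Cdkn3 and 26 for Cdkn2c. There were 38 for Cdkn1a, 1571 for Cdkn1b and 554 for Cdkn2d.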

How the data were processed

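Per the labels' protocols, SMARTer cDNA was made from RNA of 2000 sorted cells per library and sequenced by Illumina methods. TopHat and the mm9 build are named in the submitters' processing notes. For the read counter, annotation and filters the entry is: not given in the sources used here. The authors deposited 1 file per library, with a log2 value for each of 23450 gene symbols. Steps between low values showed whole reads scaled to CPM, with 1 read taken as added to each gene before the log. All values of at most 100 reads (12812 to 13135 per library) lay within 0.1 of a whole read. If genes without a read had instead been raised to 1 read, each read gene would hold 1 read more. The library total implied by the lowest value was 13077365 in LT-HSC 1, against 13062848 recovered reads. That gap is close to the 14548 genes with a read there, as this alternative would give. In LT-HSC 2, ST-HSC 1 and ST-HSC 2 the gap was likewise close to the number of genes with a read. Read counts given here may thus be 1 too low for genes with a read, and a gene given 0 reads may have had 1. Recovered reads numbered 13062848 to 16142666 per library. Because amplified reads are copies of fewer molecules, intervals and the floor of 3 reads cover only counting error.

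CPM were computed by undoing the added read. The 12569 genes reaching 1 CPM in 2 or more libraries were tested on log2(CPM + 1), which understates changes of low genes, with limma (version 3.58.1, R 4.3.3, mean trend, robust shrinkage through statmod 1.5.0) and Benjamini-Hochberg adjustment over all tested genes. Log2 fold changes are LT-HSC over ST-HSC. An SE or interval belongs to that fit. The fit was checked on simulated data with the same level of scatter for every gene, so the check does not cover the scatter of these libraries. The libraries of a group differed far beyond sampling noise (chi-square over degrees of freedom 183 in LT-HSC and 144 in ST-HSC), so none was counted as a copy. Transcript lengths came from GENCODE M21, which is of another build, so levels per kilobase are approximate. Named genes are the 8 inhibitors, fixed core genes of each list, the 2 tested members of each list with the smallest p, the sort marker genes, and the 2 nearest profiles of each inhibitor. A few genes that this rule names are not reported here. The genes and lists were chosen with earlier results of these data known. Of the sort markers, Cd9 had 134 and 124 CPM in LT-HSC, against 100.3 and 113 CPM in ST-HSC, Slamf1 (CD150) had 112 and 138 CPM, against 65.8 and 108 CPM, and Cd34 had 134 and 201 CPM, against 324 and 430 CPM. The alternatives were other filters, added values, scalings, limma-voom, no robust shrinkage, the replicate number as a block and leaving out each library.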

Additional observations from a re-analysis of the deposited data

How the results depend on the processing

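No gene passed the adjusted threshold under any of the 14 alternatives, whether among all genes, the CDK inhibitors or the listed pathway genes. The count of genes at an unadjusted p under 0.05, 814 with all libraries, was 394 when ST-HSC 2 was left out, 517 for ST-HSC 1 and 1099 for LT-HSC 2, and ran from 586 with limma-voom to 878 with the replicate number as a block. Cdkn1c kept a positive sign and Cdkn3 and Cdkn2c a negative one under every alternative run. With all 4 libraries Cdkn1c ranged from 1.36 with 5 CPM added to 1.67 on the deposited values, Cdkn3 from -1.93 on the deposited values to -1.54 with 5 CPM added, and Cdkn2c from -2.46 to -1.04 under the same settings. Leaving out single libraries turned 3 signs. The log2 fold change of Cdkn1a ran from -3.23 (LT-HSC 2 left out) to 0.086 (LT-HSC 1 left out). Cdkn1b ran from -0.45 (LT-HSC 1 left out) to 0.028 (LT-HSC 2 left out). Cdkn2d ran from -0.51 (ST-HSC 2 left out) to 0.21 (ST-HSC 1 left out), and gave 0.053 with LT-HSC 1 left out. With all libraries, limma-voom gave -2.92 for Cdkn1a. A group left with 1 library is assumed to vary like the other. The labels do not say whether libraries with the same replicate number belong together. The correlation of same-numbered deviations was 0.052 over 12569 genes, which cannot settle this with 2 libraries per group. With the replicate block 0 inhibitor genes passed. TMM and median-of-ratios factors lay between 0.978 and 1.01, so scaling moved no sign among the inhibitors. The counting floor of 0.186 to 0.229 CPM limits what can be said of Cdkn2a and Cdkn2b.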
